A study of Mus musculus with 5 samples.

Results

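Germinal centre B cells diversify their antibody genes by somatic hypermutation, and the 7 genes described here encode enzymes that process the uracil at which this mutation starts. They are Ung, Apex1 and Apex2 of base excision repair, Msh6, Pms2 and Exo1 of mismatch repair, and Polh, which encodes the error-prone DNA polymerase eta. Members were chosen by gene symbol: every probe set that the platform annotation assigns to one of these symbols was taken, which gave 17 of the 45101 probe sets on the array. The set was named for the deaminase as well, whose own values are not analysed here. Every one of the 7 genes was represented, by 1 probe set (Ung, Msh6), 2 (Apex2), 3 (Pms2, Exo1, Apex1) or 4 (Polh).

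In hypermutation a cytidine deaminase converts cytosine to uracil in the variable region DNA. The uracil is either cut out by the uracil glycosylase UNG, which leaves an abasic site for the APE endonucleases, or recognised as a U:G mismatch by a MutS complex that contains MSH6. The exonuclease EXO1 then resects the strand, and polymerase eta fills the gap and places mutations at A:T base pairs. PMS2 is the endonuclease subunit of the MutL complex of conventional mismatch repair.

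The series compared 3 WT and 2 REL arrays, each of RNA amplified from flow-sorted splenic germinal centre B cells of C57BL/6 mice, 12 weeks old, taken on day 7 after sheep red blood cells (SRBC) were injected. WT cells came from mice with Cg1-Cre alone, and REL cells from littermates with Cg1-Cre and the loxP-flanked alleles relfl/fl, so that both groups carried Cre. Rel encodes the NF-kB subunit c-Rel. Cg1-Cre expresses Cre from the immunoglobulin constant gamma 1 locus, which is transcribed in activated B cells, and the series text describes the REL cells as eGFP+ and the WT cells as eGFP-. The labels do not say whether arrays came from separate mice, so the p-values cover only spread among these 5 samples, possibly technical. In these bulk samples fewer cells of a type and less RNA per cell cannot be told apart.

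Values are MAS5 signals, the summarised brightness of a probe set after each array was scaled by itself, and differences are REL minus WT on the log2(signal + 16) scale from limma, which understates changes of dim probe sets. The arrays had equal trimmed means, and median signals were 40.7 to 54.6 for WT and 30.1 and 48.1 for REL. The Actb ratio of 3′ to 5′ signal, which rises as RNA degrades, was 1.58 to 2.45 in WT, highest in WT replicate 3, and 1.64 and 1.73 in REL. The targeted gene Rel gave 492, 134 and 206 across WT and 18.6 and 85.2 across REL, without overlap of the groups (−2.12, SE 0.74, limma adjusted p = 0.493). The B cell genes Ms4a1, Cd79a and Cd79b were at signals of 7435 to 14851 on all 5 arrays and the germinal centre regulator Bcl6 at 7619 to 10515.

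None of the 16 member probe sets that passed the filter on low signal reached an adjusted p under 0.05 in limma, where 0 of the 22190 probe sets tested did (0%). At an unadjusted p under 0.05 there were 3, from Apex1 and Polh and all lower in REL, against 8.11% of all probe sets in either direction and 4.45% lower. Of the 16, 9 lay below 0, where 54.3% of all probe sets did, and 7 above, with differences from −0.74 to 1.12 and adjusted p from 0.383 to 0.995. On 5 probe sets the 2 REL arrays were the lowest 2 of the 5, where 13.5% of all probe sets did, and on 0 they were the highest 2, where 10.5% did. These 5 belong to Apex1 (2 probe sets), Polh, Msh6 and Exo1. The remaining probe set, Exo1 1430225_at, did not pass the filter (mean signal of at least 26.8) and gave 15.2, 9.75 and 3.50 across WT and 1.06 and 0.575 across REL. Probe sets of 1 gene read the same RNA and are not replicates of each other. The plot of signals by array shows all 17 probe sets.

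**Figure D1:**
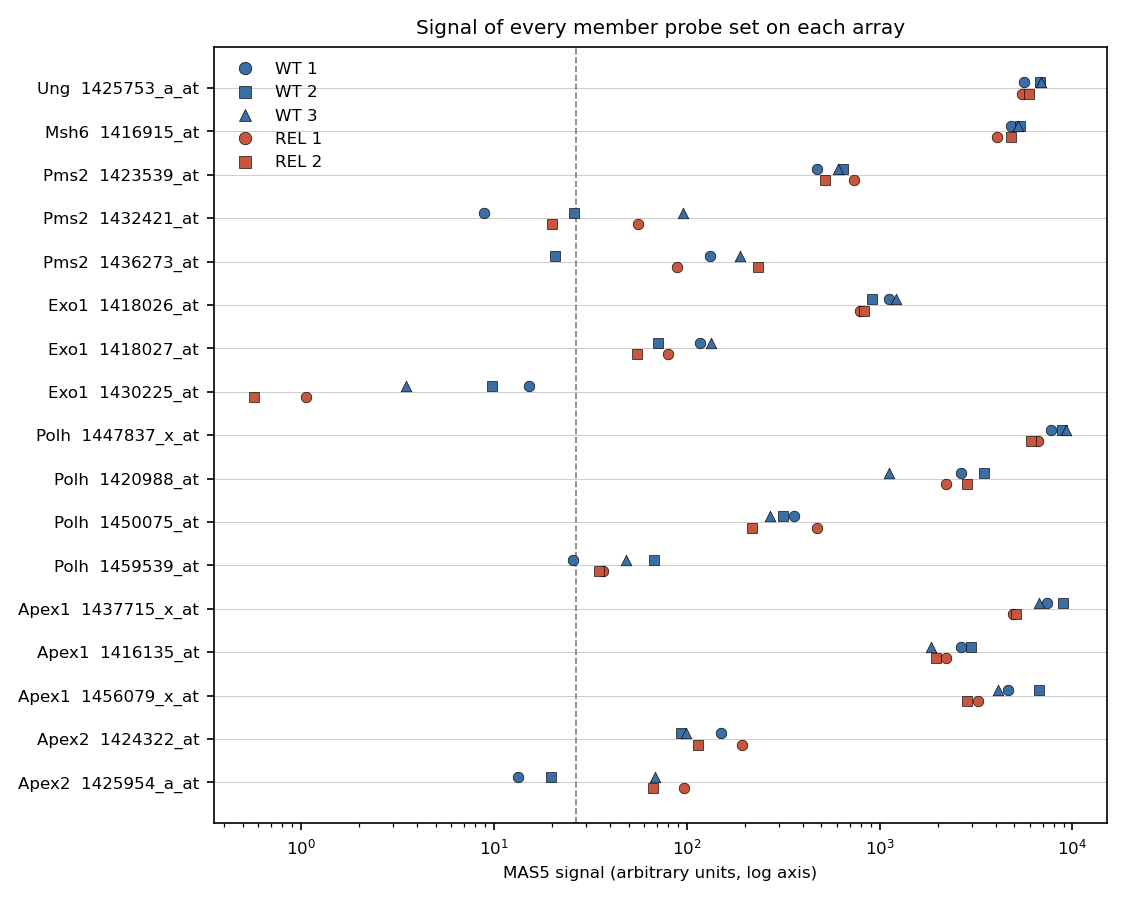
MAS5 signal (arbitrary units, log axis) of each of the 17 probe sets on the 3 WT arrays (blue) and the 2 REL arrays (red), with symbols for the replicate number and a dashed line at the filter of 26.8. The brightest Polh and Apex1 probe sets and Msh6 and Exo1 1418026_at have both REL points left of every WT point, while the groups overlap on Ung and on every tested Pms2 and Apex2 probe set.

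Among the base excision repair genes, Apex1, the major apurinic/apyrimidinic endonuclease, was lower in REL by point estimate on all 3 of its probe sets. Its probe set with the highest mean signal, 1437715_x_at, gave 7391, 8917 and 6741 across WT and 4891 and 5102 across REL. The REL arrays were close together and below the lowest WT array. The difference was −0.61 (SE 0.16, 95% confidence interval −0.98 to −0.24, limma unadjusted p = 0.00432, adjusted p = 0.383), a REL level of 0.655 times WT.

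Apex1 1456079_x_at showed the same order, with readings of 4638, 6737 and 4099 for WT and 3231 and 2824 for REL. Its difference was −0.74 (SE 0.23, interval −1.26 to −0.21, limma adjusted p = 0.459). On the other Apex1 probe set, 1416135_at, the groups overlapped, with 2640, 2978 and 1840 for WT and 2213 and 1964 for REL. WT replicate 3 was the lowest array there, and the difference was −0.22 (SE 0.27, interval −0.82 to 0.37). The suffix _x_at marks probe sets whose probes may also bind other transcripts, and both probe sets with separated groups carry it. Leaving out any 1 array kept the sign of all 3 Apex1 probe sets, with 1437715_x_at between −0.70 and −0.50.

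Ung, the nuclear and mitochondrial uracil-DNA glycosylase, gave 5625, 6816 and 6836 across WT and 5451 and 5984 across REL. REL replicate 1 was the lowest array and REL replicate 2 lay inside the WT range. The difference was −0.16 (SE 0.16, interval −0.52 to 0.20, limma adjusted p = 0.838), and it turned to 0.01 with median centring of the arrays. The interval leaves room for a REL level between 0.696 and 1.14 times WT on this scale.

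Apex2, the second AP endonuclease, which acts with the replication clamp, had point estimates above 0 on both probe sets. Apex2 1424322_at gave 150, 93.8 and 99.8 across WT and 193 and 114 across REL. REL replicate 1 was the highest array and REL replicate 2 lay inside the WT range, with a difference of 0.36 (SE 0.58, interval −0.94 to 1.67, limma adjusted p = 0.923). Without REL replicate 1 it was 0.02. Apex2 1425954_a_at, a dim probe set, had 13.3, 19.8 and 68.4 for WT and 97.0 and 66.7 for REL, where WT replicate 3 lay between the REL arrays (1.12, SE 0.65, limma adjusted p = 0.705).

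Among the mismatch repair genes, Msh6, the mismatch-binding subunit, gave 4808, 5322 and 5202 across WT and 4056 and 4777 across REL. The REL arrays were the lowest 2, but REL replicate 2 was within 31 signal units of WT replicate 1. The difference was −0.21 (SE 0.17, interval −0.59 to 0.16, limma adjusted p = 0.795), and −0.10 without REL replicate 1 and −0.33 without REL replicate 2.

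Exo1, the exonuclease that resects from the mismatch, gave 1113, 914 and 1212 across WT and 790 and 834 across REL on 1418026_at. The groups did not overlap, with a difference of −0.39 (SE 0.32, interval −1.11 to 0.32, limma adjusted p = 0.802). On the dimmer Exo1 1418027_at, with 118, 71.4 and 135 for WT and 80.3 and 55.1 for REL, REL replicate 1 lay inside the WT range (−0.55, SE 0.59). Both tested Exo1 probe sets kept their sign whichever array was left out.

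Pms2 showed no direction that held. Its brightest probe set, 1423539_at, gave 476, 649 and 606 across WT and 733 and 523 across REL, so that REL replicate 1 was the highest of all arrays and REL replicate 2 the second lowest. The difference was 0.11 (SE 0.39, interval −0.77 to 0.99), with −0.12 without REL replicate 1 and 0.35 without REL replicate 2. Pms2 1436273_at (20.8 to 190 in WT, 88.8 and 234 in REL) and 1432421_at (8.87 to 96.1 in WT, 56.1 and 20.2 in REL) spread more widely within WT than between the groups, and their differences were 0.64 (SE 0.82) and 0.06 (SE 0.74).

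Polh was the only one of the 7 genes whose tested probe sets differed in sign. On 1447837_x_at signals were 7771, 8829 and 9299 for WT and 6587 and 6096 for REL. The REL arrays were again the lowest 2, with a difference of −0.44 (SE 0.14, interval −0.76 to −0.12, limma unadjusted p = 0.0121, adjusted p = 0.466), a REL level of 0.737 times WT. Leaving out 1 array gave −0.51 to −0.39. This probe set has the suffix _x_at as well.

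The other 3 Polh probe sets did not separate the groups. Polh 1420988_at had 2657, 3465 and 1117 for WT and 2204 and 2836 for REL, and its difference of 0.20 (SE 0.42) became −0.28 without WT replicate 3, the low array. WT replicate 3 was the array with the highest Actb ratio, and the part of RNA integrity in this value was not tested. Polh 1450075_at had 361, 318 and 270 for WT against 475 and 217 for REL, with the REL arrays on either side of WT (0.04, SE 0.51). Polh 1459539_at was dim, with 25.7, 67.6 and 48.6 for WT and 36.9 and 34.9 for REL (−0.23, SE 0.59). The mean of the 4 Polh probe sets differed by −0.11. The plot of differences with intervals sets these probe sets side by side.

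**Figure D2:**
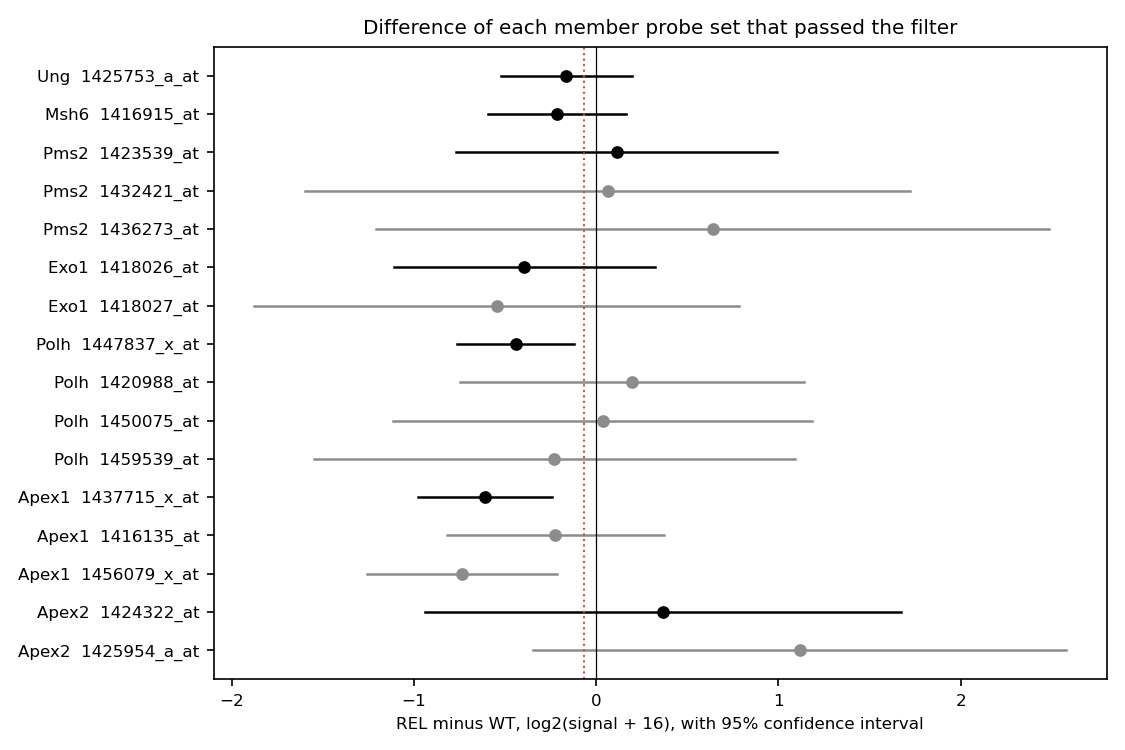
REL minus WT difference on the log2(signal + 16) scale with its 95% confidence interval for the 16 probe sets that passed the filter, black for the probe set with the highest mean signal of each gene and grey for the others, with a dotted line at the median of all genes (−0.07). The intervals of Apex1 1437715_x_at, Apex1 1456079_x_at and Polh 1447837_x_at lie below 0 before adjustment for multiple tests, and the other 13 cross it.

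With 1 probe set per gene, the one with the highest mean signal, 5 of the 7 genes lay below 0 and 2 above, where 56.6% of the 12022 genes tested lay below. The median difference of the 7 was −0.21, against −0.07 for all genes. For Apex1, Polh, Exo1 and Msh6, 4 of 7, the REL arrays were the lowest 2, where 14.2% of all genes did. This separation depended on the scaling. When each array was centred on its median log2 signal, the median of all genes moved from −0.07 to 0.10, that of the 7 genes to −0.04, and 0 of the 7 genes kept separated groups, against 7.44% of all genes. The differences of the 4 genes were then −0.44 for Apex1, −0.27 for Polh, −0.23 for Exo1 and −0.04 for Msh6. The array medians, signals of 30.1 to 54.6, lie near the filter of 26.8, so dim probe sets set this centring. With quantile normalization the same 4 genes were separated. Relative to the median of all genes the 7 stood at −0.15, at −0.30 without REL replicate 2 and at −0.03 without REL replicate 1. Median centring shifts all probe sets of an array alike, so it could not change this relative value.

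**Figure D3:**
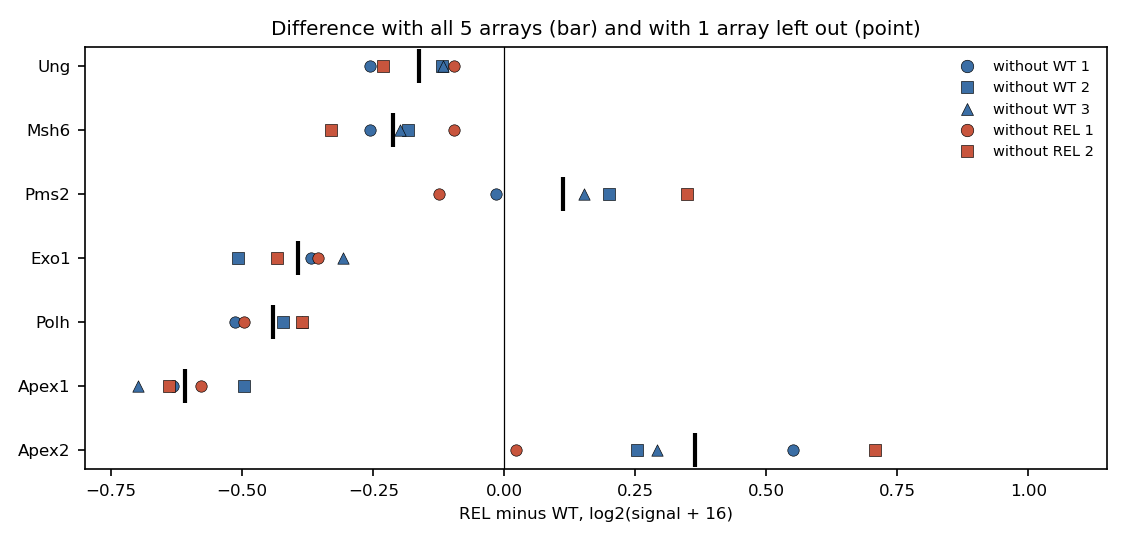
REL minus WT difference on the log2(signal + 16) scale for the brightest probe set of each gene, as a black bar with all 5 arrays and as points with the named array left out. Apex1, Polh and Exo1 stay between −0.70 and −0.31, Msh6 and Ung stay below 0, Apex2 falls to 0.02 without REL replicate 1, and Pms2 has points on both sides of 0.

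The other genes of these pathways were taken from 6 lists, S phase genes included, and none of the 88 genes tested in them reached an adjusted p under 0.05 in limma, where 0% of all genes did. Before adjustment 3 of the 88 were under 0.05, against 8.16% of all genes. Of the base excision repair partners 8 of 16 lay above 0 and 8 below, with a median of 0.01. Their smallest p belonged to the glycosylase gene Neil1 (0.26, SE 0.18), which ran from 5719 to 6446 across WT and stood at 6194 and 8800 for REL, followed by DNA ligase 1, Lig1 (−0.26, SE 0.19), and the flap endonuclease gene Fen1 (−0.20, SE 0.16). Of the mismatch repair partners 12 of 16 lay below 0, with a median of −0.13. Both REL arrays were below every WT array for 3 of the 16, where 14.2% of all genes had this order. They were above every WT array for 2, where 9.67% did: Msh3 (0.52, SE 0.35) and Pms1 (0.56, SE 0.40). Mlh3 was at −0.82 (SE 0.80) with overlapping groups. Rpa2, a subunit of the single-strand binding protein RPA, gave 4305, 3676 and 4577 across WT and 2339 and 2547 across REL, without overlap (−0.77, SE 0.20, limma unadjusted p = 0.00314 and adjusted p = 0.366 over genes). Its partner subunit gene Rpa1 was at −0.34 (SE 0.16) and the polymerase delta subunit gene Pold2 at −0.52 (SE 0.28).

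Of the 16 translesion synthesis genes, which let replication pass damaged bases, 11 lay below 0 with a median of −0.04, and 0 had both REL arrays below or above every WT array. The smallest p were those of Primpol (−0.81, SE 0.50), Wdr48 (−0.56, SE 0.36) and Usp1 (−0.32, SE 0.21), the last a deubiquitinase gene acting on the clamp PCNA with the Wdr48 product. For Wdr48 REL replicate 1 (3774) was above every WT array (3259 to 3573) and REL replicate 2 (1402) below. The 13 tested genes of the deaminase family and its cofactors had a median of 0.11, with 8 above 0, and the smallest p were those of Trim28 (−0.30, SE 0.23), Ptbp2 (0.40, SE 0.41) and Ywhaz (−0.12, SE 0.13). The 7 nucleotide pool enzymes, which set how much uracil enters DNA during synthesis, had a median of 0.04. Dtymk was at −0.25 (SE 0.14), Dctd at 0.81 (SE 0.52) and Tyms at 0.44 (SE 0.54). The last 2 were dim: Dctd gave 24.4 to 36.0 for WT and 58.4 and 73.9 for REL, near the filter of 26.8. Tyms gave 70.5 to 84.3 for WT and 111 and 105 for REL. Of the genes named from these lists, some had a tested probe set of the opposite sign: Rpa1 (1 of 2), Wdr48 and Usp1 (1 of 3 each), Tyms (1 of 4) and Ywhaz (1 of 7).

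**Figure D4:**
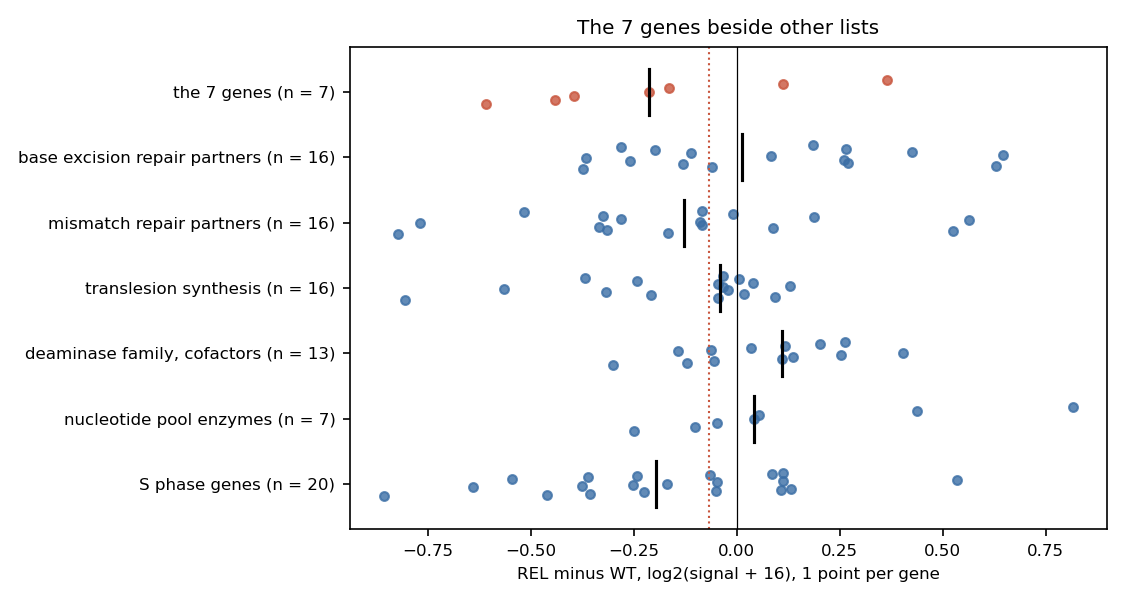
REL minus WT difference on the log2(signal + 16) scale, 1 point per gene, for the 7 genes (red) and 6 other lists (blue), with a black line at each median and a dotted line at the median of all genes (−0.07). The medians run from −0.21 for the 7 genes and −0.20 for S phase genes to 0.11 for the deaminase family and its cofactors, and the points of every list span 0.

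Several of the 7 genes are expressed most in dividing cells, and germinal centre B cells divide rapidly. The 20 tested S phase genes had a median of −0.20, with 14 below 0 and 6 with both REL arrays below every WT array, where 56.6% and 14.2% of all genes did. Their smallest p were those of the primase gene Prim1 (−0.54, SE 0.20), the helicase subunit gene Mcm6 (−0.38, SE 0.17) and the chromatin assembly gene Chaf1b (−0.86, SE 0.40). Their summed signal ran from 81183 to 94524 on WT arrays, against 77334 and 83379 for REL. The part of the S phase genes in the values of the 7 genes was not tested.

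Most macrophage markers had brighter REL than WT arrays, though 0 reached an adjusted p under 0.05 in limma. Of 15 macrophage markers on the array 12 passed the filter, 11 of them above 0 and 10 with both REL arrays above every WT array, where 9.67% of all genes did, and their summed signal was 1271 to 1874 on WT arrays against 5869 and 6389 on REL arrays. The brightest, Mpeg1, gave 1002, 674 and 648 for WT and 1211 and 2293 for REL. The 2 tested markers outside those 10 were Adgre1, with 154, 435 and 161 for WT and 120 and 116 for REL, so that both REL arrays were the lowest (−0.83, SE 0.62), and Cd68, whose groups overlapped, with 460, 297 and 303 for WT and 242 and 833 for REL. Because filtering used the mean signal of the 5 arrays together, a marker dim in WT could pass through its REL signals. Vcam1 (0.833 to 2.46), C1qc (0.669 to 1.61), Mrc1 (3.78 to 17.6) and Mertk (7.53 to 14.3) were below 26.8 on every WT array. C1qb exceeded it only on WT replicate 2 (27.0) within WT, and Csf1r only on WT replicate 3 (33.1). These markers passed through their REL signals, so their place among the 10 was in part set by the filter. The same holds for the summed signal and the median deviation of the macrophage markers. Of 8 germinal centre B cell markers 6 lay below 0, where 56.6% of all genes did. Both REL arrays were below every WT array for 2, Rgs13 (−0.54, SE 0.19) and Gcsam (−0.45, SE 0.21), where 14.2% of all genes had this order. The others had overlapping groups: Mybl1 (−0.47, SE 0.44), Fas (−0.11), Efnb1 (−0.10), Bcl6 (−0.03), S1pr2 (2.3e-04) and Mef2b (0.13). A tested probe set of the opposite sign was present for Mybl1, Bcl6 and S1pr2 (1 of 2 each) and Efnb1 (1 of 3). The summed signal of the 8 was 28859 to 35297 on WT arrays against 28272 and 27415 on REL arrays. The 5 tested general B cell markers summed to 37579 to 44086 for WT, with 38352 and 43879 for REL. T cell markers (2 tested, the brightest Cd8a) summed to 119 to 154 for WT and 149 and 70.0 for REL. Neutrophil markers (3, S100a9) summed to 686, 1255 and 62.8 for WT and 316 and 41.4 for REL. The erythroid marker Slc4a1 gave 5.67 to 93.6 for WT and 25.8 and 7.69 for REL. Plasma cell markers (5) summed to 17807 to 20836 for WT and 17278 and 19114 for REL, mostly from Jchain (11379 to 13129). Among them Sdc1 (−1.96, SE 0.66, 1 of its 3 probe sets of opposite sign) had both REL arrays below every WT array, and Xbp1 (0.49, SE 0.23) both above. The part of these cells in the differences of the 7 genes was not tested. Array by array, the 7 genes deviated from their WT mean by a median of −0.09 (WT replicate 1), 0.06 (WT replicate 2), 0.08 (WT replicate 3), −0.33 (REL replicate 1) and −0.12 (REL replicate 2). REL replicate 2 lay close to WT replicate 1.

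**Figure D5:**
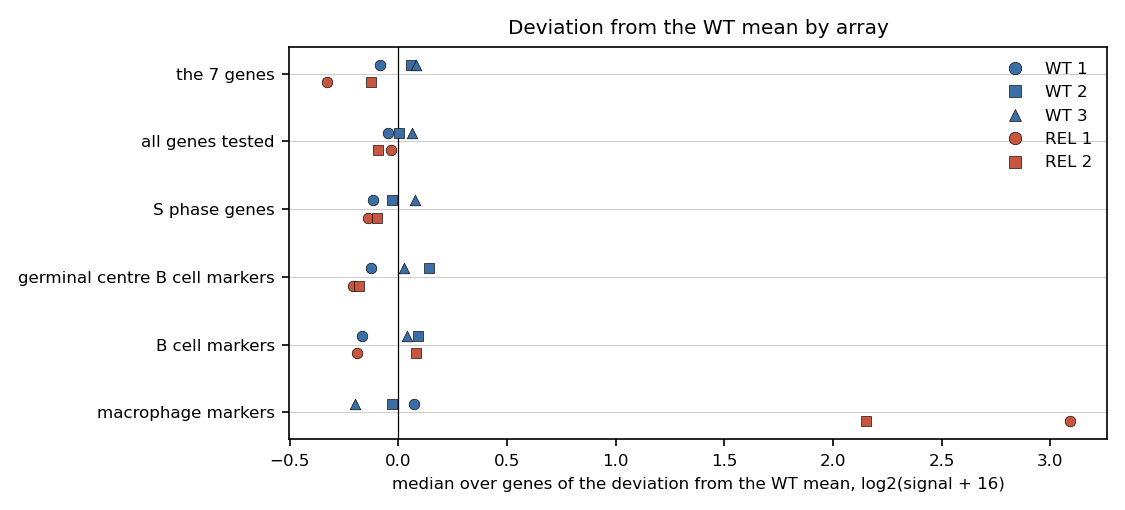
Median over the genes of each list of the deviation from the WT mean, on the log2(signal + 16) scale, for the 3 WT arrays (blue) and the 2 REL arrays (red). The 7 genes stand at −0.33 and −0.12 in REL and at −0.09 to 0.08 in WT, while the macrophage markers stand at 3.09 and 2.15 in REL. The macrophage medians were in part set by the filter, which several of these markers passed through their REL signals.

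Promoter sequence was examined for the members because c-Rel is a DNA-binding factor. RefSeq's promoter table (GRCm38.p6) held 5 of the 7 genes, all but Exo1 and Apex2. In the 250 bases before the start of these 5, both strands were searched for an NF-kB site (the 10-base kappa B consensus), the E2F-like pattern TTTNNCGC, the CCAAT box, the GC box GGGCGG, the E-box CACGTG of Myc and Max, and the palindromic cAMP response element. No match to the NF-kB, E2F-like or cAMP response patterns was found, where 3.90%, 4.28% and 1.55% of the 32851 promoters of the same length held one, which says only that these letters are not in these windows. A GC box was present in all 5 (32.7% of all promoters), CCAAT in Apex1, Msh6 and Pms2 (33.8%), and CACGTG in Apex1 alone (6.02%). G and C made up 56.8% to 73.2% of the 5 windows, against a median of 52.4% for all promoters. The part of this base content in the GC box matches was not tested. By RefSeq's annotation 69 bases of the Ung window and 100 of the Pms2 window lie within the gene itself, past an annotated start. All 250 bases of the Ung window also lie in Alkbh2. A match is a description and not a site in use.

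The stretches that lie in no annotated gene are shown for 3 genes whose REL arrays were the lowest 2, with the matches in capitals (on the other strand the GC box reads CCGCCC, and the CCAAT box reads ATTGG).
Apex1 promoter, GRCm38.p6 chr14:50924894-50924948, strand plus: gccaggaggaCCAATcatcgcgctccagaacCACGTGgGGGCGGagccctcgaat
Msh6 promoter, GRCm38.p6 chr17:87974800-87975049, strand plus: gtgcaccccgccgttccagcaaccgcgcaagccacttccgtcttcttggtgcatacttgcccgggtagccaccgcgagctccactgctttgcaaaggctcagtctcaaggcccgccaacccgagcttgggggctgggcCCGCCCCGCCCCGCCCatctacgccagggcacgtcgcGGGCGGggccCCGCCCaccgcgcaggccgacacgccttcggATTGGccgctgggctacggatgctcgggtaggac
Polh promoter, GRCm38.p6 chr17:46202642-46202810, strand minus: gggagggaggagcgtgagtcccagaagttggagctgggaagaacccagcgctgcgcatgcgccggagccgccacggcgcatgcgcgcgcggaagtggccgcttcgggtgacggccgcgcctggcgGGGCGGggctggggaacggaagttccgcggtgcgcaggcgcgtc
In Apex1 the CCAAT match, the E-box and the GC box lie within the last 45 bases before the start. Msh6 held 5 GC box matches, 3 of them overlapping in a run, and Polh held 1.

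By root mean square distance between log2 profiles over the 5 arrays, each centred on its own mean, the genes most like Apex1 were Yeats4 (distance 0.04), Uggt1 (0.04) and Glo1 (0.06). Yeats4 gave 4506, 5774 and 4272 across WT and 3153 and 3370 across REL. Those most like Apex2 were Fem1c (0.06), Gabpb2 (0.07) and Prm2 (0.07), whose highest array was likewise REL replicate 1. With 5 arrays, 305 genes lay within 0.20 of Apex1 and 186 within 0.20 of Apex2, so these names describe the profile and no relation between the genes. Apex1 and Apex2 were the 2 members whose brightest probe sets varied most over the 5 arrays (SD 0.36 and 0.39 on the log2 scale).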

How the data were processed

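The table deposited by the authors holds linear MAS5 intensities of 5 single-colour arrays, MAS5 being credited to the submitters' processing notes without version or settings. MAS5 scores each array by itself. RNA was amplified before labelling, per the labels' protocols.

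The platform annotation gave 1 symbol for 34945 non-control probe sets. Of these, 22190 had a mean signal of at least 26.8, the 40% point of all non-control probe sets with or without a symbol, and were tested. Values of log2(signal + 16) were compared with limma 3.58.1 under R 4.3.3 (lmFit on group alone, eBayes with trend, two-sided, Benjamini-Hochberg over all probe sets), with 3 residual and 6.59 prior degrees of freedom. In lists the brightest probe set stood for the gene, adjusted over 12022 genes. The number of arrays limits the precision. The code was tested on simulated data. Plots used matplotlib 3.10.9.

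The members and lists were chosen with earlier results of these data known. Named in addition, by rule, are Rel, the 3 smallest p of each pathway list, the brightest of each marker list and the nearest profiles of the 2 most variable members. Cd79a, Cd79b, Adgre1, Cd68, Vcam1, C1qc, Mrc1, Mertk, C1qb, Csf1r, Sdc1, Xbp1, Msh3, Pms1 and Mlh3 were picked after their values were seen. So were the germinal centre B cell markers other than Bcl6 and the promoter neighbours. Alternatives changed the pseudocount, filter, scaling, variance model or probe set summary, added the replicate number as a block, or left out each array.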

Additional observations from a re-analysis of the deposited data

How the results depend on the processing

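Under all 15 alternatives, 0 member probe sets and, of the pathway list genes, 0 passed the adjusted threshold in limma, and 0 to 4 member probe sets were under 0.05 before adjustment. The median difference of the 7 genes, −0.21, moved beyond the spread between arrays (0.11) to −0.044 with median centring and to −0.33 without REL replicate 2. With 1 array left out it ranged from −0.33 to −0.12. Of the 16 tested probe sets 9 kept their sign in every alternative that tested them: Msh6, both of Exo1, Polh 1447837_x_at, all 3 of Apex1 and both of Apex2. Changing the filter or variance model, or taking the brightest probe set per gene, leaves a difference unchanged, so these alternatives could not turn a sign. The replicate block gives the same difference as leaving out WT replicate 3, which has no REL array of its number, so the 2 are not separate checks of sign. Turned values were as follows, and the cause was not tested. Ung was at 0.0059 with median centring. Pms2 1423539_at was at −0.017 without WT replicate 1 and −0.12 without REL replicate 1, within a range of −0.12 to 0.35 with 1 array left out. Pms2 1432421_at was at −0.015 with a pseudocount of 64, and below 0 without WT replicate 1, WT replicate 2 or REL replicate 1, within a range of −0.43 to 0.66. Pms2 1436273_at was at −0.11 without WT replicate 2, within −0.11 to 1.27. Polh 1459539_at was at 8.6e-04 without WT replicate 2, within −0.50 to 8.6e-04. Polh 1420988_at was at −0.28, both with the replicate block and without WT replicate 3, within −0.28 to 0.53. Polh 1450075_at was at −0.068, both with the replicate block and without WT replicate 3, and at −0.50 without REL replicate 1, within −0.50 to 0.57. The replicate numbers do not pair the arrays by any label, the deviations of same-numbered arrays correlated at −0.02 and −0.004 across probe sets, and the fit with the replicate block gave a median of −0.20 for the 7 genes and called 0 of their probe sets. Standard errors of the tested member probe sets ran from 0.14 at the bright Polh 1447837_x_at to 0.82 at the dimmer Pms2 1436273_at.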

Other observations

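Apex1 has a close neighbour, Osgep, which encodes a subunit of the complex that modifies transfer RNA. In RefSeq's annotation 195 of the 250 bases before the Apex1 start lie in Osgep. On its brightest probe set Osgep gave 1864, 2354 and 2379 across WT and 1160 and 1150 across REL. The groups did not overlap there (−0.91, SE 0.26, limma adjusted p = 0.408), but they overlapped on its 2 other probe sets. The one at −1.67 (SE 0.99) gave 181, 190 and 214 across WT and 0.904 and 242 across REL. REL replicate 2 was the highest array there, so the negative difference came from REL replicate 1 alone. The other, at −1.06 (SE 0.66), was dim, with 16.2, 67.7 and 70.9 for WT and 23.5 and 6.05 for REL. The other promoters have neighbours too. Aimp2, which overlaps the Pms2 window, was at −0.41 (SE 0.24) on its brightest probe set. It gave 3189, 2591 and 2403 for WT and 1805 and 2299 for REL there, again without overlap. Its other probe set was at −0.49 (SE 0.29) with overlapping groups. Alkbh2, which overlaps the Ung window, was at −0.20 (SE 0.53). Xpo5, which overlaps the Polh window, was at 0.13 (SE 0.58), and at −0.14 (SE 0.70) on its other probe set. None of these passed the threshold.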
